A study of Mus musculus with 41 samples.

Results

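SOX9 lacking its transactivation domain (dTA-SOX9) and wild-type SOX9 (WT-SOX9) were compared by the chromatin sites at which their MYC tag was found in cultured mouse keratinocytes. The comparison rests on 18012 peaks of MYC-tag CUT&RUN (CNR), 11341 of dTA-SOX9 and 6671 of WT-SOX9, out of 267265 peaks in the lists of the series that were read. Peaks were called shared where the lists overlapped by at least 1 bp, and dTA-only or WT-only where they did not. Overlapping peaks merged to 16717 regions, of which 10071 (60.2%) were dTA-only, 5387 (32.2%) were WT-only and 1259 (7.53%) were bound in both lists.

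The series held 41 samples of skin epidermal stem cells (EpdSCs) and of keratinocytes grown from them. Each of the 2 lists compared here was called by the authors on 2 pooled samples, all with doxycycline (DOX) at 1 µg per ml, which switches the transgene on. Both groups were male CD1 keratinocytes from back skin with the labelled genotypes K14rtTA; TRE-myc-Sox9 (WT-SOX9) and K14rtTA; TRE-myc-Sox9noTA (dTA-SOX9). They shared the rtTA activator under the keratin 14 promoter and an endogenous Sox9 gene without the tag. According to the methods, the tagged forms were brought in by lentivirus behind a TRE promoter and the cells were selected with puromycin, so each group was a transduced population with its own integrations. How long the cells were kept in DOX was not given in the sources used here. WT-SOX9 cells without DOX, also 2 pooled samples, gave the background list of 2242 MYC-tag peaks, and the no-DOX MLL3/4 list used below is from the same genotype. Cells with DOX and the genotype K14rtTA; TRE-myc-Sox9noHMG (dHMG-SOX9), in which SOX9 lacks its DNA-binding domain, gave a further MYC-tag list of 2 pooled samples, used as another background.

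SOX9 is a transcription factor of the SOX family and is required in hair follicle stem cells. Its HMG domain binds and bends DNA, a domain ahead of it lets SOX9 form dimers on paired sites, and its C-terminal transactivation domain contacts co-activators. MLL3 and MLL4 are histone methyltransferases that act at enhancers. AP1, a family of FOS and JUN dimers, is a main class of factor at the enhancers of epidermal keratinocytes.

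The sequences in which the classes differed most are shown first, as windows of 50 bp on either side of a peak maximum (mm10, plus strand). Of the dTA-only peaks outside promoters and exons, the 3 of highest total signal that held an AP1 word (TGACTCA or TGAGTCA, here in capitals) and lay on an MLL3/4 peak of cells without DOX were the following, named by the nearest protein-coding start.
Cpe, chr8:64522870-64522970: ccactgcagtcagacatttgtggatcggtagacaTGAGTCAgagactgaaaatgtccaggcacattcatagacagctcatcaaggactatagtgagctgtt
Itprid2, chr2:79555506-79555606: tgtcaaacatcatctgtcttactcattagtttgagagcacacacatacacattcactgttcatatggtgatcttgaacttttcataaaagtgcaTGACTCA
Rap2b, chr3:61344250-61344350: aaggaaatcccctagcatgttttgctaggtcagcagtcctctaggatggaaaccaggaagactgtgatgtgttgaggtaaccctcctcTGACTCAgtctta

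The windows of WT-only peaks held another arrangement. In the 3 WT-only peaks of highest total signal that contained it, capitals mark a core ACAAA or ACAAT followed after 5 to 7 bases by ATTGT or TTTGT, that is, SOX cores on opposite strands. The last of these windows, near Tle1, belongs to the 10 WT-only peaks of highest signal, and its capitals mark SOX words on either strand, that is CCATTGT or CCTTTGT, or likewise GCATTGT or GCTTTGT.
Usp32, chr11:85078818-85078918: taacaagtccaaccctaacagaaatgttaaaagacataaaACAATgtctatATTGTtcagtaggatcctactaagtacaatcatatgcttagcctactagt
Postn, chr3:54444020-54444120: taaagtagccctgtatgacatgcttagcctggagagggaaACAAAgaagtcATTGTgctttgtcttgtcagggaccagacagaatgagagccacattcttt
Grm7, chr6:111136612-111136712: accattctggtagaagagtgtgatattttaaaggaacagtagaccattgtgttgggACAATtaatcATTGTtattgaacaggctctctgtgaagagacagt
Tle1, chr4:72233964-72234064: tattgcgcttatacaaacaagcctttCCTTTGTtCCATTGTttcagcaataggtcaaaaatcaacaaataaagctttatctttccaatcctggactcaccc

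Shared windows with a SOX word and an AP1 word are shown with both in capitals. The first 3 are those of highest WT-SOX9 signal, and the window at Anxa2, one of the 10 shared peaks of highest rank, held SOX words alone.
Ccser1, chr6:61115368-61115468: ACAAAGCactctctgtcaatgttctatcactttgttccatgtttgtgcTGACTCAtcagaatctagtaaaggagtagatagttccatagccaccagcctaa
Acvr1, chr2:58505886-58505986: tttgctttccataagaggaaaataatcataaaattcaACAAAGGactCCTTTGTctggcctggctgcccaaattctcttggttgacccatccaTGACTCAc
Nek2, chr1:191785195-191785295: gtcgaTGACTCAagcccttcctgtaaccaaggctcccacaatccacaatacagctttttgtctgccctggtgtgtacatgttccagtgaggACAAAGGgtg
Anxa2, chr9:69467621-69467721: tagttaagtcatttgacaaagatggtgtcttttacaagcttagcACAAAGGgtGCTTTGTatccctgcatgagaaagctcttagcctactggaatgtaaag

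The windows near Cpe, Itprid2 and Rap2b had maxima of 9025, 10051 and 6769 RPKM in the dTA-SOX9 list, at ranks 19, 65 and 94 of 11341, and no peak in the WT-SOX9 list. The paired windows near Usp32, Postn and Grm7 reached 20520, 17730 and 7716 RPKM in the WT-SOX9 list, at ranks 16, 26 and 38 of 6671, without a dTA-SOX9 peak. None of these 3 lay on an MLL3/4 peak of cells without DOX, and all 3 lay on one in WT-SOX9 cells with DOX. Of the dTA-only windows, those near Itprid2 and Rap2b also lay on an MLL3/4 peak of WT-SOX9 cells with DOX. Both lay on a SOX9 peak of skin at week 1 of DOX, as did the Postn window, while those near Cpe, Usp32 and Grm7 did not. The Grm7 window lay in a stretch of 100 kb with 16 WT-SOX9 peaks. At the shared windows the maxima were 8536 RPKM (WT-SOX9) and 4102 RPKM (dTA-SOX9) near Ccser1, 8208 and 5948 RPKM at Acvr1, a BMP receptor gene, and 3940 and 11076 RPKM near Nek2. These windows were picked after the values were seen, from intronic and intergenic peaks off the no-DOX MYC-tag list and outside chromosome 18, to show the words, and are no measure of how often the words occurred.

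RPKM here is coverage scaled by the length counted over and by the number of mapped fragments. The steps of the values put 1 fragment at 205 RPKM in the dTA-SOX9 list and 164 RPKM in the WT-SOX9 list, which implies 4.88 M and 6.09 M fragments. The list with more peaks was thus the one from fewer fragments. The weakest listed peaks held 9 and 11 fragments and lay just above the authors' limit of 1800 RPKM, at 1846 and 1806 RPKM. The median maximum was 3282 RPKM for dTA-SOX9 and 2298 RPKM for WT-SOX9, and the median width 244 bp and 189 bp. With 1 pooled list per group no replicate error can be given and no test between the groups was made. Intervals are 95% Wilson intervals of shares, and for differences Newcombe intervals, over peaks, and cover counting error only. The share of cells with a bound site and the occupancy per cell cannot be told apart in these bulk libraries.

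At the Sox9 gene (chr11:112782224-112787760), which carries the coding sequence of the transgene, both lists had peaks over coding exon 1 (maximum 18255 RPKM in dTA-SOX9, 8044 RPKM in WT-SOX9) and coding exon 2 (11281 and 8372 RPKM). Over coding exon 3, which encodes the C-terminal part, the WT-SOX9 list had a peak of 2462 RPKM over codons 423 to 492 and the dTA-SOX9 list had none. The list without DOX had peaks over all 3 coding exons too, up to 18419 RPKM, and the dHMG-SOX9 list reached 48571 RPKM over coding exon 1. The WT-SOX9 peak over coding exon 1 (chr11:112782585-112783015) had the borders of that exon. The exon peaks were therefore not read as binding. As to the labelled cell type, the no-DOX MLL3/4 list had promoter peaks at Krt5, Krt14 and Col17a1 and none at Trp63, Itga6 and Itgb4. Among the markers of other skin cells it had one at Pecam1 and none at Pdgfra, Col1a1, Ptprc, Mitf and Kit. Peaks are not expression, and this check is a weak one.

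Most sites of either protein were missing from the list of the other. Of the WT-SOX9 peaks, 1284 (19.2%, 95% CI 18.3 to 20.2) overlapped a dTA-SOX9 peak, and of the dTA-SOX9 peaks 1270 (11.2%, 95% CI 10.6 to 11.8) overlapped a WT-SOX9 peak. After a shift of 10 kb in either direction the shares were 0.742% and 0.441%. Among peaks above 3600 RPKM the shared share of dTA-SOX9 peaks was 5.44%. Within each list the shared share was higher at stronger peaks. It was 29.8% (95% CI 26.4 to 33.4) in the 10% of WT-SOX9 peaks with the highest total signal and 13.6% in the lowest 10%, and 28.8% (95% CI 26.3 to 31.5) and 5.20% in the corresponding groups of dTA-SOX9 peaks. Among the strongest 10%, 469 of 668 WT-SOX9 peaks and 808 of 1135 dTA-SOX9 peaks thus had no counterpart.

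Few unshared peaks lay close to a peak of the other list. The nearest WT-SOX9 peak lay at a median of 80479 bp from a dTA-only peak, and 2.27% of dTA-only peaks had one within 1 kb. From a WT-only peak the nearest dTA-SOX9 peak was 54236 bp away, and 3.73% had one within 1 kb. A peak of the other list lay within 50 kb of 38.0% of dTA-only and 48.1% of WT-only peaks, for which no shifted value was computed.

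**Figure D1:**
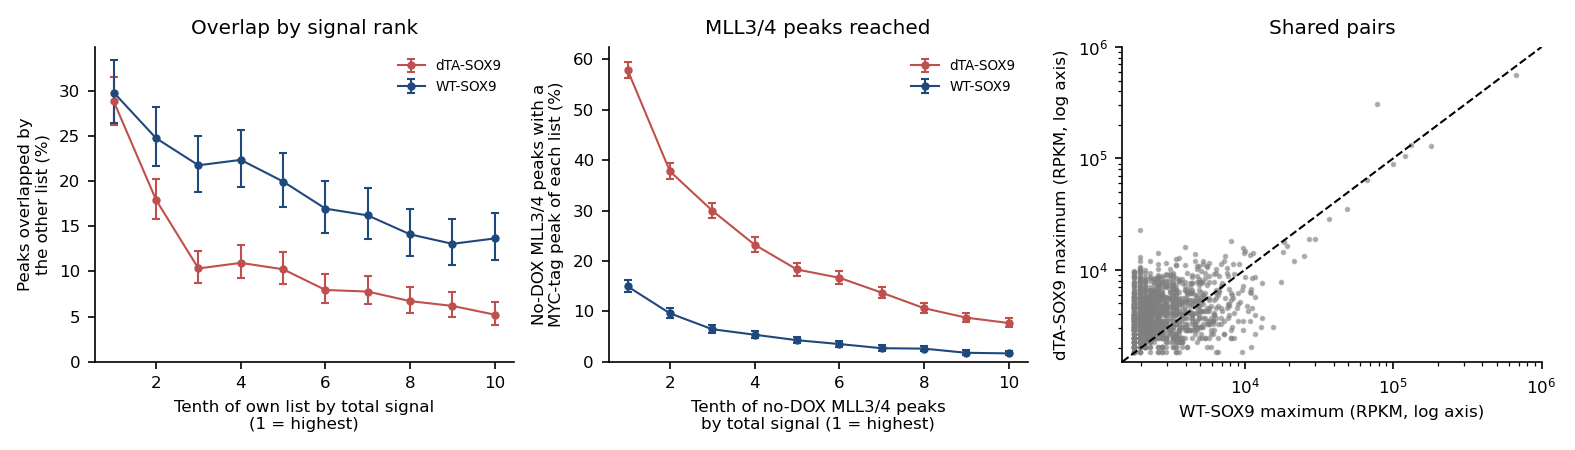
Left, share of each list overlapped by the other list, in 10 equal groups by total signal. Middle, share of no-DOX MLL3/4 peaks that carried a peak of each list, in 10 equal groups by MLL3/4 total signal. Right, maxima of the 1226 shared pairs on log axes with the line of equality (dashed). Bars are 95% Wilson intervals. From the highest to the lowest signal group, overlap fell from 29.8% to 13.6% for WT-SOX9 and from 28.8% to 5.20% for dTA-SOX9. Of the top 10% of MLL3/4 peaks, dTA-SOX9 reached 57.9% and WT-SOX9 15.0%.

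The SOX word was most frequent at WT-only sites. Within 50 bp of the maximum it was found in 36.3% (95% CI 35.0 to 37.6) of WT-only peaks and 11.7% (95% CI 11.1 to 12.4) of dTA-only peaks, against 6.52% and 6.57% in control windows 1 kb to each side. The difference was 24.5 points (95% CI 23.1 to 26.0), and 9.69 points for the single word CCATTGT. Shared sites lay between these, at 25.8% (95% CI 23.5 to 28.2) around the WT-SOX9 maximum and 19.4% (95% CI 17.3 to 21.6) around the dTA-SOX9 maximum. In the list without DOX the share was 5.17%. For scale, 16.3% of the 32851 RefSeq promoters of 300 bp in the mm10 table held the SOX word and 5.20% the AP1 word.

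The AP1 word showed the opposite order. It was found in 25.9% (95% CI 25.1 to 26.8) of dTA-only peaks, 24.4% of shared peaks around the dTA-SOX9 maximum, 18.0% around the WT-SOX9 maximum and 4.53% (95% CI 4.01 to 5.12) of WT-only peaks. The difference between dTA-only and WT-only peaks was 21.4 points (95% CI 20.4 to 22.4). Control windows held it in 1.97% (dTA-only) and 1.65% (WT-only) of cases. Windows of the MYC-tag list without DOX held it in 11.7% (95% CI 10.4 to 13.1), above the share in WT-only peaks. Windows with neither word made up 65.0% of dTA-only and 60.6% of WT-only peaks.

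**Figure D2:**
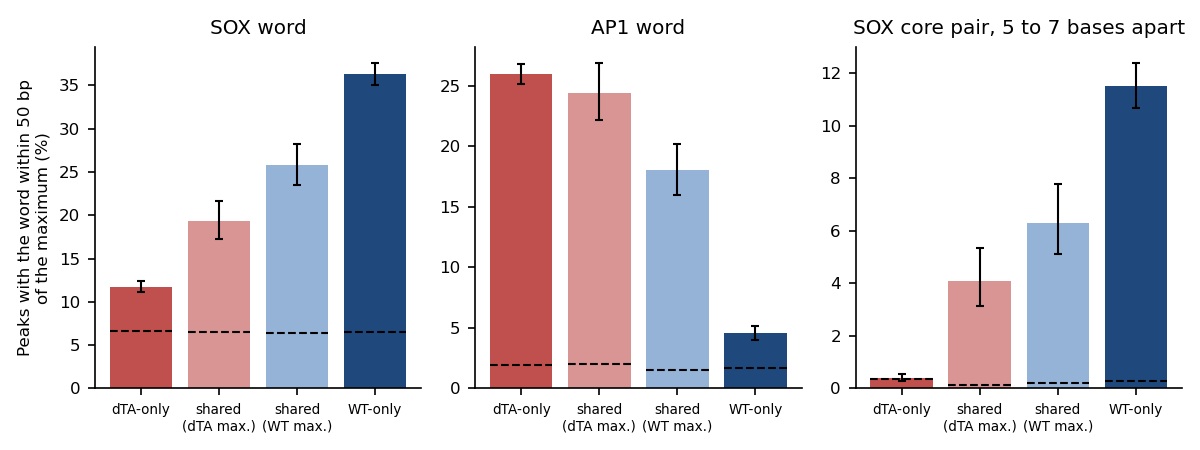
Share of peaks with the SOX word, the AP1 word and the SOX core pair within 50 bp of the maximum, in the 4 classes. Bars have 95% Wilson intervals and dashed lines are control windows 1 kb to each side. The SOX word rose from 11.7% (dTA-only) to 36.3% (WT-only), the AP1 word fell from 25.9% to 4.53%, and the pair was found in 11.5% of WT-only and 0.387% of dTA-only peaks.

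The words were centred on the maxima. In WT-only peaks the SOX word occurred 13.3 and 13.1 times per 100 peaks in the bins of 20 bp to either side of the maximum, and 1.504 times in the outermost bins, centred 490 bp away. In dTA-only peaks the central bins held 2.999 and 3.14 SOX words per 100 peaks, and the outermost bins 1.09 and 1.21. AP1 words of dTA-only peaks reached 7.57 and 7.42 per 100 peaks in the central bins and 0.407 and 0.586 in the outermost bins. In WT-only peaks the central bins held 1.02 and 1.34 AP1 words per 100 peaks.

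**Figure D3:**
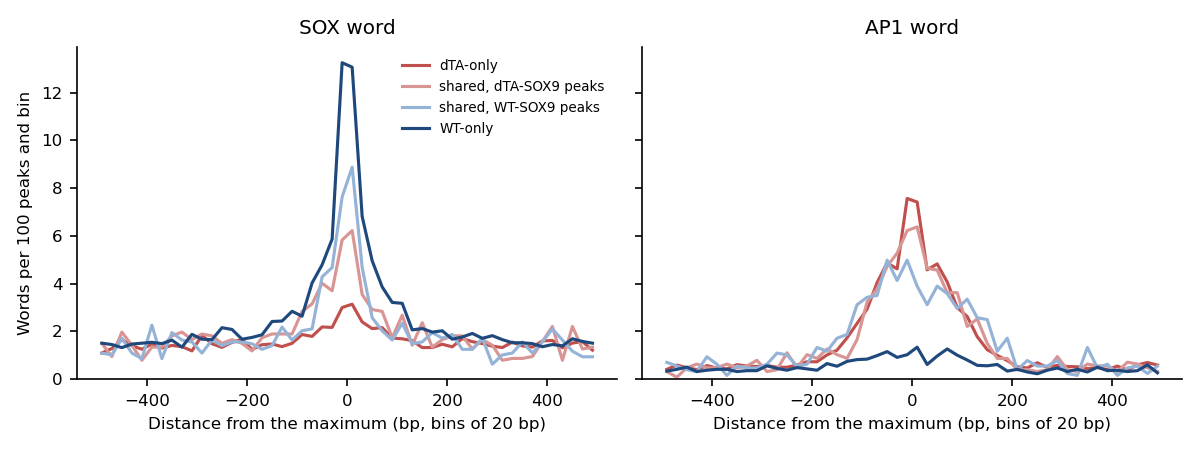
SOX words (left) and AP1 words (right) per 100 peaks in bins of 20 bp, by distance from the maximum of the peak, for the 4 classes. The SOX word peaked at 13.3 per 100 WT-only peaks and the AP1 word at 7.57 per 100 dTA-only peaks.

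Paired SOX cores separated the classes further. A core ACAAA or ACAAT followed after 5 to 7 bases by ATTGT or TTTGT was found in 619 of 5387 WT-only peaks (11.5%, 95% CI 10.7 to 12.4; control windows 0.260%). In dTA-only peaks it was found in 39 of 10071 (0.387%, 95% CI 0.283 to 0.529), against 0.357% in their control windows. Shared peaks held it in 6.31% of cases around the WT-SOX9 maximum and in 4.09% around the dTA-SOX9 maximum. The list without DOX held it in 3 of 2242 windows (0.134%), and 0.499% of RefSeq promoters held it. The pattern reads the same on either strand, and a window with the pair can also hold a SOX word. A SOX word, the pair or both stood in 40.9% of WT-only and 12.005% of dTA-only windows. A narrower pair, ACAAT followed after 3 to 6 bases by ATTGT, was found in 2.91% of WT-only peaks (control windows 0.0557%) and in 0.199% of dTA-only peaks (95% CI 0.129 to 0.307), above their control windows at 0.0645%.

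The spacing of the pair was narrow. In WT-only peaks a gap of 6 bases was found in 5.44% of windows, gaps of 5 and 7 bases in 3.29% and 2.84%, and gaps of 4 and 8 bases in 0.575% and 0.520%. Each gap stood at 0.179% or less in dTA-only peaks over the range from 4 to 9 bases. With the cores in the opposite order, the highest share in WT-only peaks was 0.965%, also at 6 bases. The range of 5 to 7 bases was set after this profile had been seen.

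**Figure D4:**
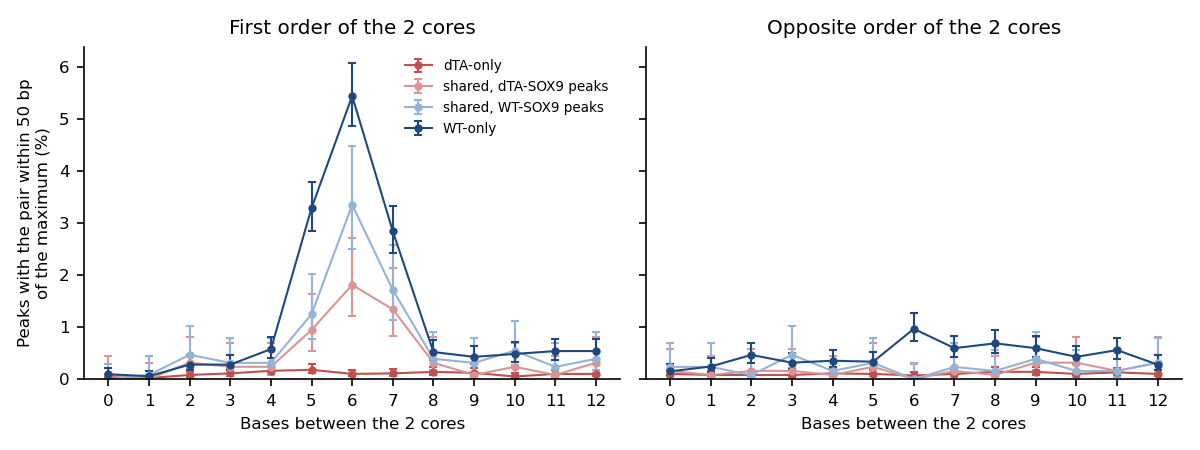
Share of peaks with a pair of SOX cores within 50 bp of the maximum, by the number of bases between the cores. Left, ACAAA or ACAAT before ATTGT or TTTGT, and right, the opposite order, both with 95% Wilson intervals. In WT-only peaks the first order rose to 5.44% at 6 bases, while dTA-only peaks stayed at or below 0.179% from 4 to 9 bases.

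Other words differed less between the classes, in points. The TEAD word (CATTCCA or CATTCCT) was found in 7.62% of dTA-only and 4.23% of WT-only peaks (controls 3.80% and 3.94%), the RUNX word (AACCACA) in 4.39% and 2.93% (2.32% and 2.49%), and the GATA word (AGATAAC or AGATAAG) in 3.84% and 2.28% (2.33% and 2.45%). These 3 words thus stood above their controls in dTA-only peaks, while in WT-only peaks TEAD and GATA lay near them. The KLF and SP word (GGGCGG) went the other way, with 1.15% of dTA-only and 3.66% of WT-only peaks (controls 1.29% and 1.61%). It was concentrated at promoters, where 19.9% of 748 WT-only peaks held it against 4.97% of 945 dTA-only peaks. The background list without DOX held it in 13.8% of windows. The words AACCNGTT (GRHL), GCCNNNGGC (AP2), ATCAAAG (TCF and LEF), TGTTTAC (FOX), CCGGAA (ETS), TGACGTCA (CRE) and those of NFI, CTCF and TP63 each stood in at most 2.91% of either class. The TCF and LEF word stood in 2.91% of WT-only (control 1.77%) and 1.57% of dTA-only peaks (1.71%). For GRHL the shares were 1.13% (0.780%) and 1.51% (0.700%). The CRE word was rare, at 0.353% (0.0186%) and 0.218% (0.0794%). Words were searched on both strands, and a match is no proof of a bound site.

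The SOX word in WT-only peaks varied with signal and with no-DOX MLL3/4. It was found in 43.1% of the top 20% of WT-only peaks by total signal and in 29.0% of the bottom 20%. Away from the MLL3/4 peaks of cells without DOX the share was 39.6% of 4558 WT-only peaks, and on them it was 18.1% of 829. The core pair went with it, at 12.97% and 3.38%. In dTA-only peaks the SOX word changed little, with 12.4% in the top and 11.3% in the bottom 20%, and 13.9% away from and 10.7% on MLL3/4 peaks. The AP1 word was found in 25.04% of dTA-only peaks away from no-DOX MLL3/4 peaks and in 26.4% of those on them.

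MLL3/4 sites of WT-SOX9 cells without DOX were far more frequent under dTA-only peaks. An MLL3/4 list of dTA-SOX9 cells without DOX was not analysed here. Of dTA-only peaks 66.8% (95% CI 65.9 to 67.8) lay on an MLL3/4 peak of cells without DOX, against 15.4% (95% CI 14.4 to 16.4) of WT-only peaks, a difference of 51.5 points (95% CI 50.1 to 52.8). Moved by 10 kb, the peaks overlapped in 2.95% and 2.24% of cases. For dTA-SOX9 the share depended on signal and fell from 91.9% in the top 10% of the list to 52.4% in the lowest 10%. For WT-SOX9 it stayed between 26.5% and 28.9% over all 10 groups.

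Seen from the 33975 no-DOX MLL3/4 peaks, dTA-SOX9 was found at 22.5% and WT-SOX9 at 5.28%. In the top 10% by MLL3/4 signal these shares were 57.9% (95% CI 56.2 to 59.6) and 15.0% (95% CI 13.8 to 16.2), and in the lowest 10% 7.68% and 1.65%. The MLL3/4 peaks with dTA-SOX9 held the AP1 word in 30.2% of windows and those with neither protein in 20.9%. The SOX word was found in 9.43% of the former and 5.68% of the latter.

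With DOX, MLL3/4 was listed at 50.9% of WT-only peaks in WT-SOX9 cells and at 10.9% in dTA-SOX9 cells. Of dTA-only peaks 71.3% carried MLL3/4 in dTA-SOX9 cells and 21.5% in WT-SOX9 cells. Shared peaks carried it in 80.8% (WT-SOX9 cells) and 77.3% (dTA-SOX9 cells) of cases. The MLL3/4 lists differ in length, with 25948 peaks in dTA-SOX9 and 10543 in WT-SOX9 cells, so these shares are not comparable between the cells.

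In skin, where SOX9 was switched on in EpdSCs in vivo, WT-only peaks overlapped SOX9 peaks more often than dTA-only peaks did, and shared peaks most often. The skin lists are SOX9 CNR, not MYC-tag CNR, so SOX9 without the tag can be counted in them. Per the paper they came from mice with Krt14-rtTA and TRE-Sox9, induced as adults or, for the last time point, in grafts of newborn skin. At week 1 (W1) of DOX the shares were 31.0% (WT-only), 22.7% (dTA-only) and 65.1% (shared WT-SOX9 peaks), and WT-only exceeded dTA-only by 8.31 points (95% CI 6.84 to 9.80), and by 15.6 points among peaks above 3600 RPKM. Before DOX (D0) the skin list overlapped 1.43% of WT-only, 3.09% of dTA-only and 11.6% of shared peaks. At week 6 the shares were 41.5%, 33.1% and 77.8%. At week 12, where skin had been grafted onto immunocompromised mice, they were 30.5%, 24.8% and 75.9%. The skin lists held 792 (D0), 15651 (W1), 20579 (W6) and 9745 (W12) peaks, so shares are not comparable between weeks.

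**Figure D5:**
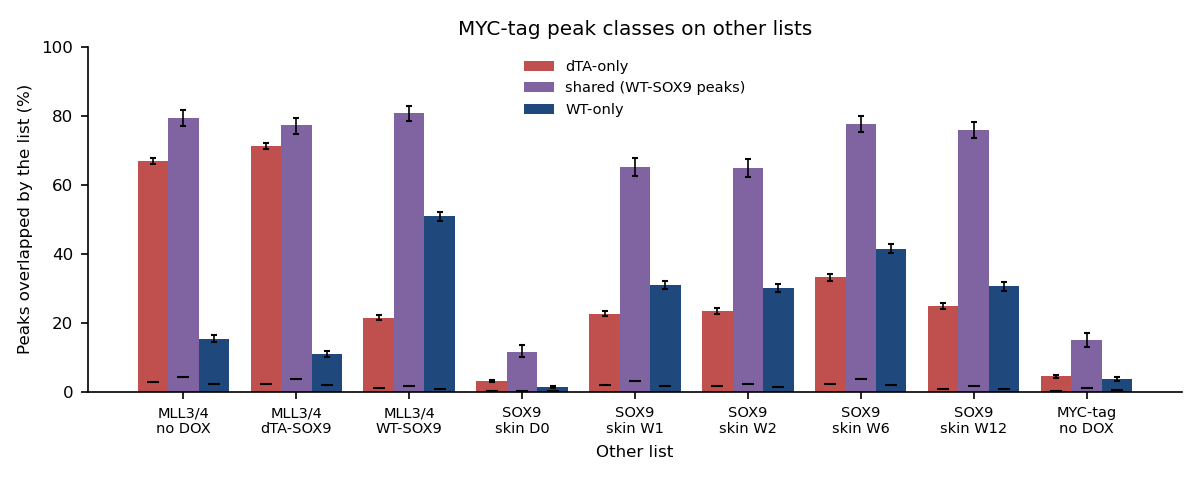
Share of dTA-only, shared and WT-only peaks overlapped by MLL3/4 lists of cultured cells, SOX9 lists of skin EpdSCs at D0 to W12 and the MYC-tag list without DOX. Bars have 95% Wilson intervals, and short black lines give the overlap after moving the peaks by 10 kb. No-DOX MLL3/4 was listed at 66.8% of dTA-only and 15.4% of WT-only peaks.

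The background without DOX was largest among shared peaks. It overlapped 15.0% of shared WT-SOX9 peaks, 16.1% of shared dTA-SOX9 peaks, 4.48% of dTA-only and 3.62% of WT-only peaks. The longer list of no-DOX replicate 1, which reaches below 1800 RPKM, overlapped 24.1%, 26.0%, 11.1% and 5.49% of them. All of the 10 dTA-SOX9 and 10 WT-SOX9 peaks of highest total signal lay on no-DOX peaks and were shared. Peaks on the no-DOX list were left out of the named peaks for this reason. The dHMG-SOX9 list overlapped 18.1% of shared WT-SOX9 peaks, 6.20% of dTA-only and 3.60% of WT-only peaks.

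Where both proteins were found, the maximum of dTA-SOX9 was usually the higher. In 1226 pairs of 1 peak with 1 peak the median maximum was 4102 RPKM (quartiles 3077 and 5743) for dTA-SOX9 and 2462 RPKM (1970 and 3612) for WT-SOX9. The dTA-SOX9 maximum was higher in 77.3% of pairs (95% CI 74.9 to 79.6), with a median log2 ratio of 0.57 (quartiles 0.08 and 1.09). Over these pairs Spearman's rho of the maxima was 0.222, a weak relation within 2 libraries, with 0.145 in the 1034 pairs off no-DOX MYC-tag peaks and 0.548 in the 192 pairs on them. On those background peaks the dTA-SOX9 maximum was higher too, in 73.4% of pairs, with a median log2 ratio of 0.60. The maxima lay a median of 35 bp apart, and 58.7% within 50 bp, in peaks that had to overlap. RPKM is a share of each library, so the ratio says nothing of absolute occupancy.

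The ratio followed the words. Where the WT-SOX9 maximum held an AP1 word but no SOX word, dTA-SOX9 was higher in 87.1% of 171 pairs (median log2 ratio 0.78). Where it held a SOX word but no AP1 word, dTA-SOX9 was higher in 65.9% of 267 pairs (median log2 ratio 0.39). Pairs on no-DOX MLL3/4 peaks gave 81.5% and 0.64, and pairs away from them 61.3% and 0.21.

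Promoters, here 1 kb to either side of any annotated start, took up 13.9% (95% CI 12.99 to 14.8) of WT-only, 9.38% (95% CI 8.83 to 9.97) of dTA-only and 16.7% of shared WT-SOX9 peaks. The difference of 4.50 points (95% CI 3.43 to 5.60) between WT-only and dTA-only peaks turned to -0.614 points (95% CI -2.31 to 1.27) for peaks above 3600 RPKM and to -0.181 points for peaks of at least 20 fragments. No promoter preference is therefore given for strong peaks. Introns held 47.2% of WT-only and 45.9% of dTA-only peaks, intergenic sequence 35.6% and 42.2%, and exons 3.27% and 2.49%. The median distance to the nearest annotated start was 10377 bp for WT-only, 11387 bp for dTA-only and 7931 bp for shared WT-SOX9 peaks.

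The 10 dTA-only peaks of highest signal that no no-DOX peak overlapped lay on no-DOX MLL3/4 peaks in 9 cases (66.8% of all dTA-only peaks). All 10 lay on MLL3/4 peaks of dTA-SOX9 cells (71.3% of all dTA-only peaks). The highest in rank overlapped an annotated exon at the 3′ end of Met, the gene of the hepatocyte growth factor receptor, at chr6:17573666-17574102, with 14563 RPKM (71 fragments, rank 14). A further one lay 53934 bp from a Met start, at 9435 RPKM. Both Met peaks overlapped the replicate 1 list without DOX, though not the pooled one. They and the peak nearest to Cd93 also overlapped the dHMG-SOX9 list. An intronic peak 27046 bp from the start of Has2, a hyaluronan synthase gene, reached 8820 RPKM and was the 1 of the 10 without no-DOX MLL3/4. The others, from 5538 to 10871 RPKM, had their nearest protein-coding start at Cpe (carboxypeptidase E), Ces1a (a carboxylesterase), Dusp10 (a MAP kinase phosphatase), Phlda1, Cd93, Mreg and Ctif. A SOX word stood in 3 of these 10 windows and an AP1 word in 1, where 11.7% and 25.9% of all dTA-only peaks held them.

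The 10 corresponding WT-only peaks all lay away from no-DOX MLL3/4 peaks, on which 15.4% of all WT-only peaks lay. All 10 lay on MLL3/4 peaks of WT-SOX9 cells with DOX (50.9% of all WT-only peaks). None lay on an MLL3/4 peak of dTA-SOX9 cells (10.9% of all WT-only peaks). A SOX word stood in 3 of these windows, as among the 10 dTA-only peaks, and an AP1 word in 0, where 36.3% and 4.53% of all WT-only peaks held them. The highest in rank was an intronic peak nearest to the start of Lmnb1, the lamin B1 gene, with 24953 RPKM (152 fragments, rank 12). The intronic peaks nearest to Usp32, a deubiquitinase gene, and Clca4a reached 20520 RPKM (125 fragments) and 19371 RPKM (118 fragments), and the intergenic peaks nearest to Clec2d and Necab1 reached 15924 and 15103 RPKM. The remaining 5, nearest to Grik2 (a glutamate receptor gene), Tfpi (tissue factor pathway inhibitor), Mc5r (a melanocortin receptor), Gm21961 and Tle1 (a Groucho co-repressor), had 7716 to 13954 RPKM. Skin SOX9 peaks of W1 overlapped 6 of these 10 and 1 of the 10 dTA-only peaks, and those of W12 7 and 5, where the shares over all WT-only and dTA-only peaks were 31.0% and 22.7% (W1) and 30.5% and 24.8% (W12). The dTA-only and WT-only sets were ranked in different libraries, and their levels are not compared.

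The 10 shared peaks of highest mean rank lay on MLL3/4 peaks in all 3 cultured lists described here, and 9 of them lay on W1 skin SOX9 peaks. Over all shared WT-SOX9 peaks the MLL3/4 shares were 79.5% (no DOX), 80.8% (WT-SOX9) and 77.3% (dTA-SOX9), and the W1 share 65.1%. The intronic site nearest to Cdk5r1 had 9521 RPKM in WT-SOX9 (rank 34) and 6564 RPKM in dTA-SOX9 (rank 71). The site near Dsc3, which encodes the desmosomal cadherin desmocollin 3, had 6402 RPKM (rank 101) and 10256 RPKM (rank 17). Nearest to Anxa2, the annexin A2 gene, WT-SOX9 had 13133 RPKM and dTA-SOX9 7589 RPKM. Nearest to Osbpl3 the order was the opposite, with 3612 RPKM in WT-SOX9 and 12717 RPKM in dTA-SOX9. The other 6 had their nearest protein-coding start at Il34 (a ligand of the CSF1 receptor), Nek7, 3110018I06Rik, Pxdc1, Kif21a (a kinesin) and Cerkl. Of these 10, 6 overlapped a peak in the longer list of no-DOX replicate 1 (24.1% over all shared WT-SOX9 peaks), and those nearest to Dsc3, 3110018I06Rik and Osbpl3 overlapped the dHMG-SOX9 list.

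Counted by genes, the lists met more often than by peaks. Of 21911 protein-coding genes, 8974 (41%) had a dTA-SOX9 peak in the gene body or within 50 kb and 7002 (32%) a WT-SOX9 peak. Both were found at 4428 genes (20.2%), dTA-SOX9 without WT-SOX9 at 4546 (20.7%) and WT-SOX9 without dTA-SOX9 at 2574 (11.7%). Neither was found at 10363 genes (47.3%), and a shared peak at 1896 (8.65%). Of the 4428 genes with both, 2533 (57.2%) had no shared peak. Over all genes, 63.2% of the unshared peaks so assigned were dTA-only, which is the value to hold the lists against. Neighbouring genes share peaks, and long genes collect more.

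At epidermal keratin and adhesion genes, 10 of 12 had a dTA-SOX9 peak and 9 of 12 a WT-SOX9 peak, against 41% and 32% of all protein-coding genes. The median gene length was 33.1 kb in this list and 17.4 kb over all protein-coding genes. The list had 36 dTA-only, 13 WT-only and 14 shared peaks (73.5% of the unshared ones dTA-only). Krt14, a keratin of basal cells, had 6 dTA-SOX9 and 0 WT-SOX9 peaks, while its partner Krt5 had 6 and 5, of which 4 were shared. Around the desmoglein gene Dsg3 lay 12 dTA-SOX9 and 5 WT-SOX9 peaks, and around Dsc3, in the same cluster, 8 and 2. The integrin genes Itga6, Itgb4 and Itgb1 had equal counts in both lists (3, 2 and 6).

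Epidermal transcription factors had the highest dTA-only share of the lists, with 25 dTA-only, 6 WT-only and 2 shared peaks (80.6%). Trp63, the p63 gene of stratified epithelia, had 10 dTA-SOX9 and 2 WT-SOX9 peaks, none shared. Grhl2, a grainyhead factor gene, had 5 and 1. The AP1 genes had 11 dTA-only and 3 WT-only peaks (78.6%), led by Atf3 with 4 and 0, and Jun with 2 and 0. These lists are small, and a few genes carry each share.

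The EGF receptor family and its ligands had 19 dTA-only, 7 WT-only and 3 shared peaks (73.1%). Egfr had 6 dTA-SOX9 and 0 WT-SOX9 peaks, and the ligand gene Tgfa 5 and 0. Ereg, which encodes epiregulin, had 3 and 4. TGF-beta and BMP pathway genes had 15 dTA-only, 6 WT-only and 0 shared peaks (71.4%). Both TGF-beta receptor genes, Tgfbr1 and Tgfbr2, and the signal transducer gene Smad3 had 2 dTA-SOX9 and 0 WT-SOX9 peaks, while the target genes Id1 and Id3 each had 0 and 1.

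Hair follicle stem cell transcription factors had 20 dTA-only, 16 WT-only and 3 shared peaks (55.6% of the unshared ones dTA-only, near the 63.2% of all genes). Of the 12, 11 had a dTA-SOX9 peak and 7 a WT-SOX9 peak, against 41% and 32% of all protein-coding genes. Both counts include Sox9. The genes of this list are long, with a median of 103.7 kb against 17.4 kb over all protein-coding genes. Lhx2, Tcf7l1 and Gli2 had 3 dTA-SOX9 peaks each and 0 WT-SOX9 peaks, whereas Nfib had 2 and 4, Tcf7l2 2 and 3, and Runx1 4 and 5 with 1 shared. The counts at Sox9 (0 dTA-only, 1 WT-only, 2 shared) are the peaks over its coding exons described above. Among surface and secreted markers of these cells, 11 dTA-only, 6 WT-only and 7 shared peaks were found (64.7%), of which Col17a1, a hemidesmosome collagen, had 5 of the shared ones. The MYC-tag list without DOX also had 3 peaks around Col17a1. Lgr5, a stem cell receptor gene, had 0 dTA-SOX9 and 1 WT-SOX9 peak.

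The SOX family was the list in which WT-only peaks outnumbered dTA-only peaks, with 18 against 9 (33.3% dTA-only), and 13 of the 18 lay at Sox6, where dTA-SOX9 had 1 peak. Sox5, its close relative, had 5 dTA-SOX9 and 3 WT-SOX9 peaks. In the Hedgehog pathway (11 dTA-only, 6 WT-only, 1 shared) the factor gene Gli3 had 0 dTA-SOX9 and 4 WT-SOX9 peaks, while Smo, the signal transducer, had 3 and 0. Gli2, another GLI factor gene and counted with the hair follicle factors, had 3 dTA-only and 0 WT-only peaks. In the WNT and TCF/LEF pathway the counts were 5 dTA-only and 5 WT-only, without Tcf7l1 (3 and 0) and Tcf7l2 (2 and 3), which were counted with the hair follicle factors. The receptor gene Fzd7 had 1 dTA-SOX9 and 4 WT-SOX9 peaks. Genes of the MLL3/4 and SWI/SNF complexes had 7 and 7. Runx2, Runx3 and the partner gene Cbfb had 6 dTA-only and 2 WT-only peaks, 5 and 2 of them at Runx2. Runx1, counted with the hair follicle factors, had 3 and 4. Mesenchymal transition and matrix genes had 32 dTA-only and 17 WT-only peaks, with the laminin gene Lama3 at 13 and 3.

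Of all protein-coding genes, Macrod2 (30 dTA-only peaks), Gm20388 (29), Fgfr2 (20), Dlg2 (19), Met (17), Gm20696 (17), Foxp1 (16), Cpe (14), Nedd4l (14) and Lama3 (13) had the most dTA-only peaks. Several are very long, up to 4435 kb for Gm20388, but Met (110 kb) and Cpe (101 kb) are not. At Met there were 17 dTA-only peaks, 1 WT-only and 1 shared, and at Cpe 14 and 1 with none shared. Most WT-only peaks were counted at Sfi1 (45), Drg1 (41) and Eif4enif1 (37) on chromosome 11 and at Gm10721, Gm17535, Gm10722, Gm10715 and Gm10720 on chromosome 9 (14 each). These 8 share 2 dense stretches in which the no-DOX list also had 86 and 30 peaks within 100 kb, and their counts were not read as SOX9 binding. Outside them, Grm7, a metabotropic glutamate receptor gene, had 18 WT-only and 1 dTA-only peaks and Exoc4 17 and 7.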

How the data were processed

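MYC-tag CNR of dTA-SOX9 and WT-SOX9 keratinocytes was read from the peak lists deposited by the authors, 1 list per group of 2 pooled samples. Per the methods and the submitters' processing notes, the authors aligned reads to mm10 with Bowtie2 2.2.9, took out duplicates with Picard, selected fragments up to 120 bp with SAMtools 1.3.1, made coverage with deepTools 3.1.2 and called peaks with SEACR (stringent, 0.01), above 1800. The deposited maximum of a MYC-tag or skin SOX9 peak is in RPKM as the authors scaled it. The deposited total score of a peak is its signal summed over bases, and the deposited pooled MLL3/4 lists hold unscaled signal (coverage). Lists of single replicates served as background or alternatives only.

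Overlaps, words within 50 bp of the centre of the maximum, promoters (1 kb) and loci (50 kb) were computed with Python 3.11.15, pandas 2.3.3, numpy 2.4.6, scipy 1.17.1 and pysam 0.24.0 on GRCm38 (mm10) and GENCODE vM21, and plotted with matplotlib 3.10.9. All MYC-tag peaks lay on chromosomes 1 to 19 or X. The code was tested on simulated lists. Named peaks are the 10 of highest total signal per class without a no-DOX MYC-tag peak, and named genes the 10 with most dTA-only or WT-only peaks and the members of 13 gene lists. Members and lists were chosen with earlier results of these data known. No test was made between single lists.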

Additional observations from a re-analysis of the deposited data

How the results depend on the processing

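No paired analysis was possible because each group had 1 pooled list, and leaving out a replicate was possible for the no-DOX MYC-tag and MLL3/4 lists alone. Over 18 alternatives, and with a reach of 10 kb around genes besides, 98 values were computed. Of these, 50 moved by less than their counting interval, 46 moved further and 2 turned in sign. Both of these were the promoter difference, at -0.614 points above 3600 RPKM and -0.181 points with at least 20 fragments.

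The shared share of WT-SOX9 peaks (19.2%), that of dTA-SOX9 peaks (11.2%) and that of the top 10% of WT-SOX9 peaks (29.8%) moved under most settings. They were 17.8%, 10.4% and 26.3% for the top 50% of each list, 14.8%, 14.5% and 25.9% for lists of equal size, and 14.7%, 8.41% and 24.6% with at least 20 fragments. Without no-DOX peaks they were 17.2%, 9.94% and 23.7%, without the peaks of no-DOX replicate 1 alone 15.6%, 9.46% and 21.7%, and without dHMG-SOX9 peaks 16.6%, 9.77% and 23.5%. Above 3600 RPKM they were 16.2%, 5.44% and 29.0%. Equal sizes thus lowered the WT-SOX9 share and raised the dTA-SOX9 share. With replicate 1 in place of the pooled list the background was 12.7% of dTA-SOX9 peaks, against 5.78%. That list leaves out replicate 2 but also reaches below the 1800 RPKM limit (6707 peaks, from 2 fragments), so the choices cannot be told apart.

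The SOX difference was 27.5 points (top 50%), 31.9 (above 3600 RPKM), 30.8 (20 fragments), 9.69 (CCATTGT alone) and 27.4 (windows of 100 bp to each side). The AP1 difference was 23.7 above 3600 RPKM, 23.4 with 20 fragments and 32.0 in the wider windows. The MLL3/4 difference was 61.6 (top 50%), 56.8 (equal size), 64.9 (above 3600 RPKM), 65.4 (20 fragments), 54.2 (MLL3/4 replicate 1) and 38.6 (top 50% of MLL3/4 peaks). The W1 difference was 10.6, 15.6 and 13.5 in the top 50%, above 3600 RPKM and with 20 fragments, and 6.57 and 5.77 with the W2 and W12 lists. The promoter difference was 2.41 (top 50%), 6.11 (equal size), 2.91 (no-DOX peaks out), 1.87 (peaks of replicate 1 out) and 2.98 (dHMG-SOX9 peaks out). At 10 kb, 51.0% of genes with WT-SOX9 had dTA-SOX9. Leaving out 10 dense bins, chosen after seeing the data, moved no value beyond its interval. The causes were not tested.

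Between the groups no replicate spread is known, and intervals over peaks understate the error. A peak below the limit in one library is missing from its list, so absence from a list does not show absence of binding. Fragments at the weakest peaks number 9 to 11.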

Other observations

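Several chromosomes carried more MYC-tag peaks than their length would give, in both lists and without DOX alike. On chromosome 6 the density relative to the genome was 1.64 for dTA-SOX9, 1.72 for WT-SOX9 and 1.66 for the list without DOX, against 1.28 for MLL3/4 without DOX and 1.04 for SOX9 in skin at W1. On chromosome 18 it was 2.03, 1.92 and 2.04, against 1.49 and 0.966. The cause was not tested.

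Dense stretches were found in 10 bins of 100 kb with 10 or more peaks of either list. The bins at Sfi1 on chromosome 11 and at the start of chromosome 9 held 23 and 11 dTA-SOX9, 60 and 25 WT-SOX9 and 86 and 30 no-DOX peaks. A bin within Grm7 on chromosome 6 held 16 WT-SOX9 and 0 dTA-SOX9 peaks and 0 no-DOX peaks, and another on that chromosome 10, 1 and 1. Bins on chromosomes 1, 2, 13, 18 and 19 and the bin at Met on chromosome 6 held 10 to 13 dTA-SOX9 peaks each, 0 to 3 WT-SOX9 peaks and at most 1 no-DOX peak.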
